A study of Mus musculus with 6 samples.

Results

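The genes described here are 10 members of the pluripotency network, Pou5f1, Sox2, Nanog, Sall4, Utf1, Zfp42, L1td1, Esrrb, Klf4 and Klf2, taken by name from a table of 27998 genes. All 10 have a row in it. They were measured by single-cell RNA sequencing in germ cells of the fetal mouse testis at embryonic day 14.5, sorted by flow cytometry for the red fluorescent protein tdTomato. The design has 3 control libraries with the genotype label wildtype and 3 libraries of a conditional knockout (cKO) of Rb1, the gene of the retinoblastoma protein, all male and of a mixed C57/B6 and 129 background. The labels give neither the Cre driver, nor the deleted part of Rb1, nor which allele carries tdTomato, and they do not say whether the replicates came from separate embryos or litters, so every p-value measures only the spread between these libraries. Each member is followed across the 6 libraries, across the 5 clusters of cells that the authors deposited without names, and with regard to where the third control library lies.

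The network holds a cell in a state from which many lineages can form. Pou5f1 (OCT4) and Sox2 bind DNA together, often at an octamer next to a SOX site, and with Nanog they switch on each other and many further genes. Mouse primordial germ cells express the network again after it has been lost from somatic cells, and male germ cells silence much of it as they stop dividing in the fetal testis. Of the members, 9 encode DNA-binding or chromatin-bound regulators, while L1td1 encodes an RNA-binding protein, so it is not a transcription factor.

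Stretches upstream of Nanog, Sox2 and Zfp42 are shown because they hold TTTGCAT, a part of the octamer ATTTGCAT that POU factors such as Pou5f1 bind. Only the Zfp42 stretch holds the whole octamer. They come from RefSeq promoter windows of the build GRCm38.p6, each with 250 bases before and 50 after a start site. 9 of the 10 members, all but Sall4, matched such a window. Capitals mark TTTGCAT, its reverse complement ATGCAAA or the SOX motif ACAATG, and each stretch is written 5′ to 3′ on the strand of its gene. The Nanog stretch (chr6:122707384-122707450, plus strand) overlaps no gene of the GENCODE M21 annotation, and neither does that of Zfp42 (chr8:43307158-43307224, minus strand). The Sox2 stretch (chr3:34649866-34649932, plus strand) lies outside exons within the long noncoding gene Sox2ot.
Nanog: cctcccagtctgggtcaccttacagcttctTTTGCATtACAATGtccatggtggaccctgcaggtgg
Sox2: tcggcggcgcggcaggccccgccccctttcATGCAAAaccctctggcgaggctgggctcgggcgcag
Zfp42: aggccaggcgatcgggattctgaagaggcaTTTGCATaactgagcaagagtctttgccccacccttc
In Nanog TTTGCAT begins at position -75 from the first RefSeq start and a SOX motif follows it after 1 base. In Zfp42 it begins at position -185, and in Sox2 it reads on the opposite strand at position -99. Both strands were searched. TTTGCAT was in the windows of 3 members and of 5.24% of the 27025 genes that the RefSeq promoter table holds. ACAATG was in windows of Nanog, Esrrb and Pou5f1 and of 14.3% of genes, the Pou5f1 match lying outside exons in the gene body, before its second RefSeq start. TTTGCAT followed within 3 bases by ACAA was found in 0.107% of genes, and among the members only in Nanog. These matches describe letters, not bound sites.

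After a filter on cells, 5154 of 5160 barcodes remained, 430 to 1354 per library, with 7598511 to 17323152 UMIs (unique molecular identifiers, each marking 1 captured transcript). 9 barcode sequences occurred in more than 1 library. Rb1 checks the labels. It stood at 10.3, 8.65 and 7.13 CPM (counts per 1000000) in controls 1 to 3 and at 3.35, 3.73 and 3.64 CPM in cKO 1 to 3, from 27 to 119 UMIs per library. Its log2 fold change was -1.27 ± 0.19 (SE). The adjusted p was 0.415 with the quasi-likelihood test of edgeR, 0.0422 without control 3 and 0.0250 with DESeq2. Over 14 fits of all cells by edgeR or DESeq2 it ran from 0.0181 to 0.9998. A 3′ count can come from a part of the transcript that the deletion leaves in place, so Rb1 levels may check nothing about it. Control 3 stood apart in several ways: it had the lowest median depth (12748.5 UMIs per cell), the lowest TMM scaling factor (0.965, against up to 1.03) and only 1.85% of its cells in cluster 3, against 7.04% to 9.42% in the other libraries. Its 8 Sertoli cell markers summed to 26.1 CPM, against 6.31 to 12.7 CPM elsewhere. Not all of them were raised there. With cells thinned to 10000 UMIs, the share of cells showing Aard, Cst9, Amh or Sox9 was largest in control 3. For Wt1, Amhr2, Dhh and Fgf9 it was largest in another library. Germ cell markers summed to 8758 to 9650 CPM in controls and 8620 to 9486 CPM in cKO libraries. Single markers of this list went both ways in control 3. Dazl (932 CPM against 1163 to 1275 CPM elsewhere), Ddx4, Mael and Nanos2 were lowest there, and Dppa5a and Tfap2c were highest.

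No member differed between cKO and control libraries past the threshold, an adjusted p under 0.05. With counts summed over the cells of each library, edgeR called 0 of the 10 members, and 0 had an unadjusted p under 0.05. Over all 11540 genes tested it called 0.0%, and 3.51% had an unadjusted p under 0.05. DESeq2 also called 0 members, and 4 genes in all. Pou5f1, Nanog, Utf1 and Sall4 were held closely: the 95% intervals of their differences stayed within 0.25 on the log2 scale. The intervals of Klf2, Klf4, L1td1, Zfp42, Esrrb and Sox2 were wider, and that of Klf2 runs from 0.0978-fold to 3.05-fold. The level of no member separated the groups, beside 8.93% of all genes tested, so the members were not set apart by this count.

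**Figure D1:**
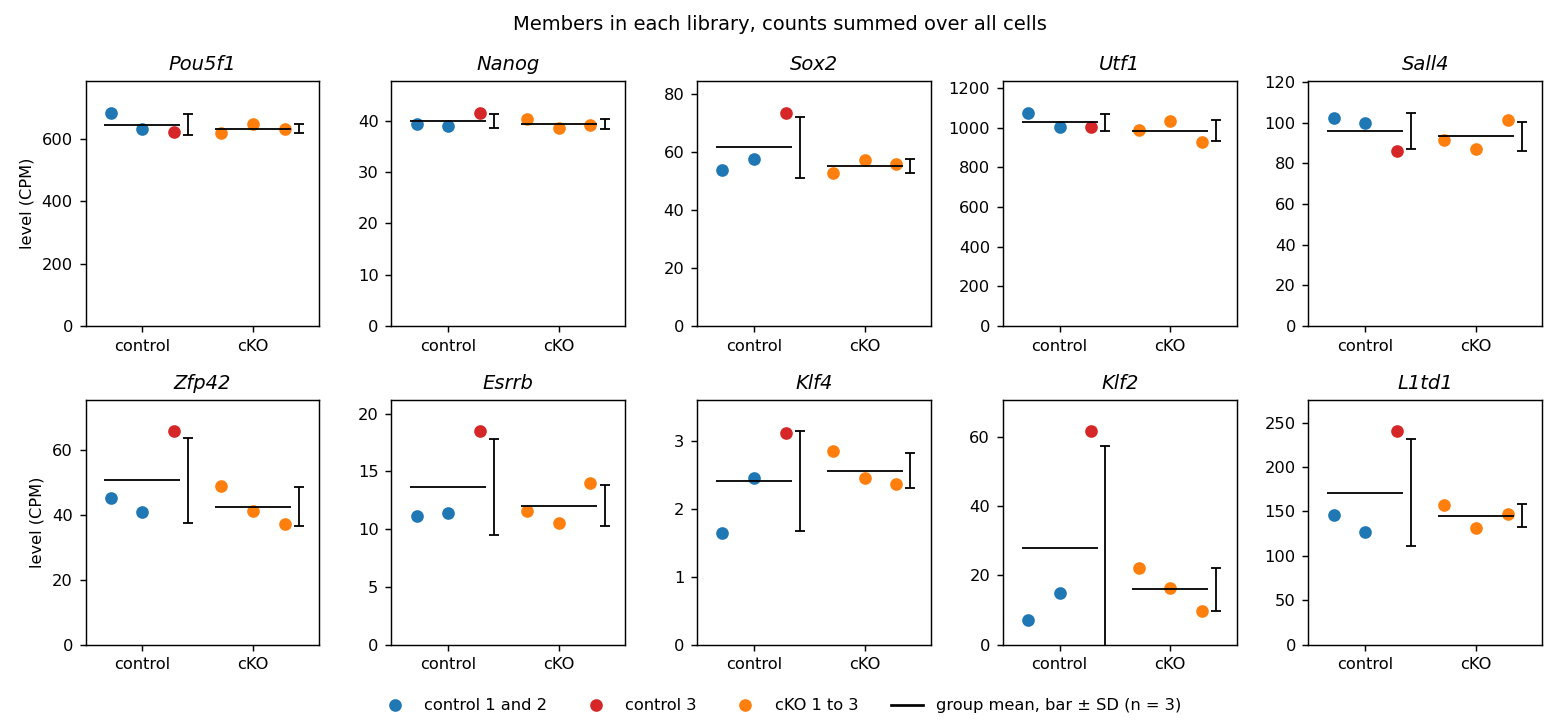
Level of each member (CPM, linear axes from 0) in the 3 control and 3 cKO libraries, with the group mean and SD (n = 3); the SD bar of Klf2 in controls runs below 0 and is clipped there. Control 3 (red) is the highest library for 7 members and furthest away for Klf2, at 61.7 CPM against 7.23 to 22.1 CPM.

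Levels below are CPM scaled with TMM factors. Each transcript is counted once at its 3′ end, so they are not divided by gene length. Gene positions are those of GENCODE M21 on GRCm38. Pou5f1 (chromosome 17, 35506018 to 35510772, plus strand), the POU factor at the centre of the network, stood at 683, 632 and 623 CPM in controls 1 to 3 and at 618, 647 and 633 CPM in cKO 1 to 3. The groups overlapped, with means of 646 ± 32.4 CPM in controls and 632 ± 14.5 CPM in cKO libraries (SD, n = 3 each). edgeR put the log2 fold change at -0.03 ± 0.07 (SE; 95% interval -0.18 to 0.12), with an adjusted p of 0.994, which is also the adjusted p of the other 9 members. Gm19553, an annotated gene on the opposite strand, overlaps Pou5f1 and has its own row in the table; how reads were divided between them is not given in the sources used here.

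Sox2 (chromosome 3, 34650405 to 34652461, plus strand), the partner of Pou5f1 on DNA, stood at 53.7, 57.3 and 73.3 CPM in the controls and at 52.5, 57.1 and 55.7 CPM in the cKO libraries. Control 3 lay above the other 5 libraries, which fell between 52.5 and 57.3 CPM. Its log2 fold change of -0.16 ± 0.12 (SE; interval -0.42 to 0.10) became -0.01 ± 0.09 without control 3. Sox2 lies within Sox2ot on the same strand.

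Nanog (chromosome 6, 122707489 to 122714633, plus strand), the homeobox factor that completes the core, stood at 39.2, 39.0 and 41.5 CPM in the controls and at 40.4, 38.5 and 39.1 CPM in the cKO libraries. It was the steadiest of the 10 members: its coefficient of variation over the 6 libraries was 2.77%, against a median of 8.56% for 1845 genes within 1.5-fold of its level. Its log2 fold change was -0.02 ± 0.08 (SE; interval -0.21 to 0.16).

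Sall4 (chromosome 2, 168748332 to 168767943, minus strand), a zinc finger protein that binds Pou5f1 and Nanog and is needed in early germ cells, was the only member with its lowest value in control 3. It stood at 102, 99.9 and 85.9 CPM in the controls and at 91.5, 87.2 and 101 CPM in the cKO libraries, so that both groups covered nearly the same range. cKO differed from control by a log2 value of -0.04 ± 0.09 (SE; interval -0.25 to 0.17).

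Utf1 (chromosome 7, 139943789 to 139945112, plus strand), a chromatin-bound protein that is a target of Pou5f1 and Sox2, had the most UMIs of the members. It stood at 1074, 1005 and 1001 CPM in the controls and at 991, 1035 and 929 CPM in the cKO libraries, with overlap between the groups. For Utf1 the difference was -0.06 ± 0.07 on the log2 scale (SE; interval -0.22 to 0.10).

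Zfp42, or REX1 (chromosome 8, 43295063 to 43306980, minus strand), a zinc finger protein and long-used marker of pluripotent cells, stood at 45.2, 41.1 and 65.8 CPM in the controls and at 49.0, 41.4 and 37.4 CPM in the cKO libraries. Control 3 was the highest, and controls 1 and 2 lay among the cKO libraries. The log2 difference was -0.26 ± 0.19 (SE; interval -0.71 to 0.18) with all libraries and -0.03 ± 0.12 without control 3.

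L1td1 (chromosome 4, 98726734 to 98738480, plus strand) is derived from a LINE-1 element and is abundant in pluripotent cells and germ cells. It stood at 146, 127 and 240 CPM in the controls and at 157, 131 and 147 CPM in the cKO libraries. Control 3 was 1.69 times the mean of the other 5, which overlapped. The log2 fold change was -0.24 ± 0.26 (SE; interval -0.89 to 0.40), and 0.09 ± 0.10 without control 3.

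Esrrb, Klf4 and Klf2 belong to the naive state, a ground state like that of the early epiblast, where Esrrb is an orphan nuclear receptor and the Klf genes encode zinc finger factors. Esrrb (chromosome 12, 86361117 to 86521628, plus strand) stood at 11.2, 11.4 and 18.5 CPM in the controls and at 11.5, 10.5 and 14.0 CPM in the cKO libraries. Klf4 (chromosome 4, 55527143 to 55532466, minus strand) was the scarcest member, at 1.65, 2.45 and 3.12 CPM in the controls and 2.86, 2.46 and 2.37 CPM in the cKO libraries, from 18 to 52 UMIs per library. Their log2 fold changes were -0.20 ± 0.21 and 0.06 ± 0.29 (SE), and without control 3 they were 0.10 ± 0.16 and 0.33 ± 0.32.

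Klf2 (chromosome 8, 72319033 to 72321656, plus strand) varied most. It stood at 7.23, 14.98 and 61.7 CPM in controls 1 to 3, from 79, 116 and 1030 UMIs, and at 22.1, 16.4 and 9.60 CPM in cKO 1 to 3, from 178, 207 and 158 UMIs. The lowest and the highest library were both controls, and the cKO libraries lay between them. The log2 fold change of -0.87 ± 0.93 (SE, interval -3.35 to 1.61) turned to 0.53 ± 0.55 without control 3. Its coefficient of variation was 91.6% over the 6 libraries and still 41.7% over the 5 others; the first exceeds that of 99.95% of the 2121 genes within 1.5-fold of its level.

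**Figure D2:**
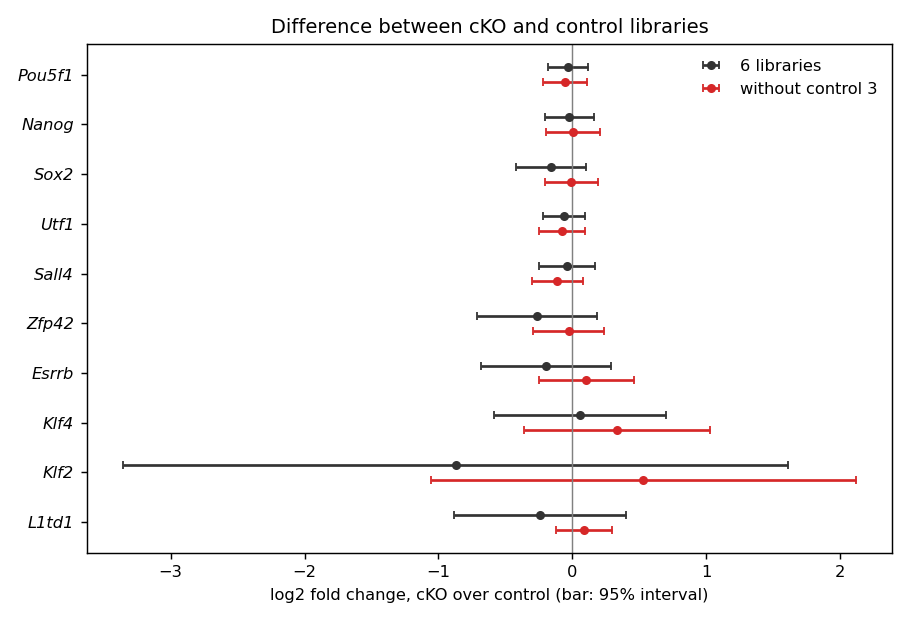
Difference between cKO and control libraries for each member (log2 fold change, points) with its 95% interval (bars) from the edgeR fit of all 6 libraries (black) and of 5 libraries without control 3 (red). Every interval crosses 0; Klf2 moves from -0.87 to 0.53 when control 3 is left out.

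With all libraries, 9 of the 10 members had a log2 fold change below 0 and 1 above, with a median of -0.11, beside a median of 0.00 and 50.1% above 0 for all genes tested. Without control 3 the members divided into 5 above and 5 below, with a median of -0.00. The surplus of values below 0 was thus lost when control 3 was left out.

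Control 3 was the highest of the 6 libraries for 7 members, Klf2, L1td1, Esrrb, Zfp42, Klf4, Sox2 and Nanog, and the lowest for Sall4. It was the highest for 24.2% and the lowest for 24.3% of all genes tested. Without TMM factors it was the highest for 6 members, against 17.5% of genes, and the lowest for 2, against 31.9% of genes. For Nanog the distance was small: control 3 exceeded the mean of controls 1 and 2 by 0.08 on the log2 scale, which 62.2% of genes did not reach. It rose through 0.39 for Sox2, 0.43 for Klf4, 0.60 for Zfp42, 0.67 for Esrrb and 0.81 for L1td1 to 2.37 for Klf2, which 99.9% of genes did not reach. Pou5f1, Utf1 and Sall4 were below controls 1 and 2, by log2 values of -0.08, -0.05 and -0.23. Only for Utf1 was this distance smaller than the SD of log2(CPM + 1) over the 3 cKO libraries, which was 0.08 for that gene.

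The place of control 3 was the same within clusters for Klf2, L1td1, Zfp42 and Sox2, but not for Esrrb, Klf4 and Nanog. Klf2 was at 57.6, 69.1, 59.3 and 52.5 CPM in clusters 0 to 3 of control 3. The other 5 libraries ranged from 7.55 to 25.4, 7.455 to 20.1, 5.11 to 24.9 and 8.65 to 18.9 CPM. L1td1, Zfp42 and Sox2 were also highest in control 3 in each of these clusters. Esrrb was not highest in control 3 in cluster 2, nor Klf4 in clusters 1, 2 and 3, and 21 or fewer Klf4 UMIs stood behind each of these control 3 values. Nanog was highest in control 3 in clusters 1 and 3 only. For Klf2, L1td1, Zfp42 and Sox2 the distance of control 3 was as large within clusters 0, 1 and 2 as over all cells, or nearly so. The log2 values were 2.30 to 2.54 for Klf2 and 0.32 to 0.44 for Sox2. Of other cell types, all 8 Sertoli markers and all 7 endothelial markers had UMIs, with sums of 6.31 to 26.1 and 69.2 to 90.6 CPM in controls and 8.92 to 12.7 and 63.4 to 80.8 CPM in cKO libraries, and both lists were highest in control 3. The macrophage, erythroid and germ cell lists were highest there too. The Leydig, interstitial stromal, peritubular myoid, epithelial and platelet lists were highest in other libraries. The part of other cell types in the members' values was not tested.

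**Figure D3:**
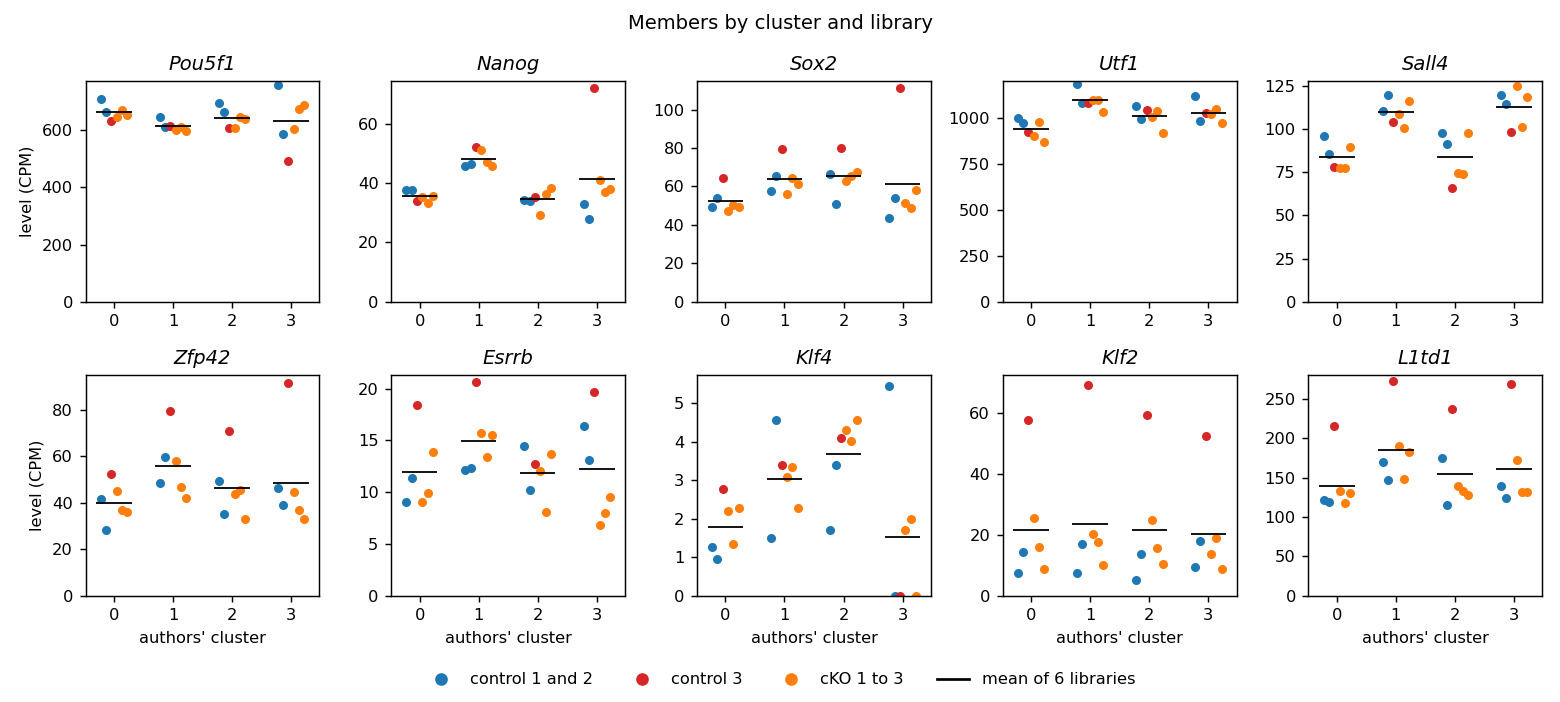
Level of each member (CPM, axes from 0) in clusters 0 to 3 for each library, with the mean of the 6 libraries as a line. Nanog, Sall4, Zfp42 and L1td1 are higher in cluster 1 than in cluster 0, and control 3 (red) is the highest library for Klf2 in all 4 clusters.

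Pou5f1 and Utf1 were abundant in every cluster, whereas Klf4 had 7 UMIs in cluster 3 and 1 in cluster 4. The clusters were made from the transcripts of these same cells, so differences between clusters are described here and not tested. Clusters 0 to 4 held 2210, 1863, 640, 343 and 98 cells. Pou5f1 had means of 663 ± 27.6, 614 ± 17.4, 644 ± 32.5 and 635 ± 93.3 CPM in clusters 0 to 3 (SD over 6 libraries), and in the order of these means the spreads of neighbouring clusters overlapped, while those of the highest, cluster 0, and the lowest, cluster 1, did not. Within each of the 6 libraries it was slightly lower in cluster 1 than in cluster 0, by a log2 difference of -0.11 ± 0.04 (SD, n = 6). Most of the other members went the opposite way.

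Nanog was at 48.0 ± 2.90 CPM in cluster 1, above 35.5 ± 1.86 CPM in cluster 0 and 34.5 ± 3.06 CPM in cluster 2, which did not differ beyond their spread. Cluster 3 lay at 41.4 ± 15.7 CPM, a range that includes the other 3. Relative to cluster 0 of the same library, cluster 1 was higher in 6 of 6 libraries for Nanog, Sox2, Utf1, Sall4, Zfp42, Esrrb and L1td1. On the scale of log2(CPM + 1) these differences were 0.42 ± 0.14, 0.29 ± 0.05, 0.22 ± 0.05, 0.39 ± 0.10, 0.46 ± 0.32, 0.32 ± 0.24 and 0.40 ± 0.09 (SD, n = 6). Klf2 showed no such shift, with 0.08 ± 0.22, higher in 4 of 6 libraries. Klf4 was higher in cluster 1 in 5 of 6 libraries, with 0.52 ± 0.58. Cluster 2 was above cluster 0 in 6 of 6 libraries for Utf1 and Klf4, as was cluster 3 for Utf1, Sall4 and L1td1. The same count over all genes was not made. These counts thus do not set the members apart from other genes.

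Sall4 was at 113 ± 10.7 CPM in cluster 3 and 110 ± 7.25 CPM in cluster 1, which overlapped, and at 84.0 ± 7.71 and 83.7 ± 13.8 CPM in clusters 0 and 2, which overlapped as well. Utf1 ran from 942 ± 51.7 CPM in cluster 0 through 1011 ± 52.1 in cluster 2 and 1030 ± 53.4 in cluster 3 to 1097 ± 50.6 CPM in cluster 1. L1td1 was at 140 ± 37.5, 185 ± 46.3, 155 ± 45.2 and 161 ± 55.4 CPM in clusters 0 to 3, a spread that control 3 widens. Sox2 was lowest in cluster 0, at 52.2 ± 6.40 CPM, and at 64.0 ± 8.39, 65.6 ± 9.41 and 61.2 ± 25.1 CPM in clusters 1 to 3. Zfp42 was at 40.0 ± 8.29, 55.8 ± 13.4, 46.2 ± 13.6 and 48.6 ± 21.7 CPM, and Esrrb at 11.96 ± 3.66, 14.9 ± 3.17, 11.9 ± 2.38 and 12.2 ± 5.05 CPM, in both cases with overlapping spreads. The means of Klf4 lay between 1.53 and 3.68 CPM, the lowest in cluster 3, where 3 libraries had 0 UMIs.

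Values in cluster 3 of control 3 rest on 25 cells, with 75 Pou5f1, 11 Nanog and 17 Sox2 UMIs. Cluster 3 also held more markers of other cell types: summed over libraries, 4 megakaryocyte or platelet markers reached 88.6 CPM and 8 interstitial stromal markers 31.5 CPM there, against at most 1.10 and 4.70 CPM in the other 4 clusters. The platelet markers came mostly from control 2, at 52.1 CPM over all its cells against 0.397 to 1.19 CPM in the other libraries. Their part in the cluster 3 values was not tested. Cluster 4 had at least 20 cells in only 2 libraries, control 3 and cKO 3, in which Pou5f1 stood at 746 and 740 CPM and Utf1 at 942 and 940 CPM.

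Within clusters, cKO and control libraries gave the same picture. edgeR called 0 members in clusters 0, 1, 2 and 3, of 10, 10, 9 and 8 tested, and 0 had an unadjusted p under 0.05. Among all genes 392 of 10091, 333 of 9889, 319 of 7895 and 202 of 5996 had an unadjusted edgeR p under 0.05 there. So few members were tested that their 0 does not set them apart. Among all genes edgeR called 0.0% in each of the 4 clusters, and DESeq2 called 0 members in any of them. The smallest unadjusted p of a member was that of Zfp42 in cluster 1, 0.0770, with a log2 fold change of -0.38 ± 0.19 (SE; edgeR adjusted p 0.9997). Zfp42 had values below 0 in clusters 0, 2 and 3 too, of -0.09 ± 0.20, -0.43 ± 0.23 and -0.42 ± 0.27 (SE). Without control 3 its values in clusters 0 to 3 were 0.14 ± 0.17, -0.15 ± 0.15, -0.09 ± 0.21 and -0.20 ± 0.26 (SE), so that cluster 0 changed sign and the others lay nearer 0. Nanog stood at -0.06 ± 0.11, -0.01 ± 0.11, 0.03 ± 0.18 and 0.10 ± 0.28 in clusters 0 to 3, and Pou5f1 between -0.05 and 0.06.

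Whether the difference between genotypes itself differed between clusters was tested with each library as a block. 0 members were called for cluster 1, 2 or 3 against cluster 0, of 10, 10 and 9 tested, where 0.0192%, 0.021% and 0.0216% of all genes were called by edgeR. The lowest unadjusted p was again that of Zfp42, 0.0264 for cluster 1 against cluster 0, with a further log2 difference of -0.28 ± 0.12 (SE) and an edgeR adjusted p of 0.952. Esrrb gave the largest estimate, -0.90 ± 0.49 for cluster 3 against cluster 0, from 46 UMIs in cluster 3 and an edgeR adjusted p of 0.9998.

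**Figure D4:**
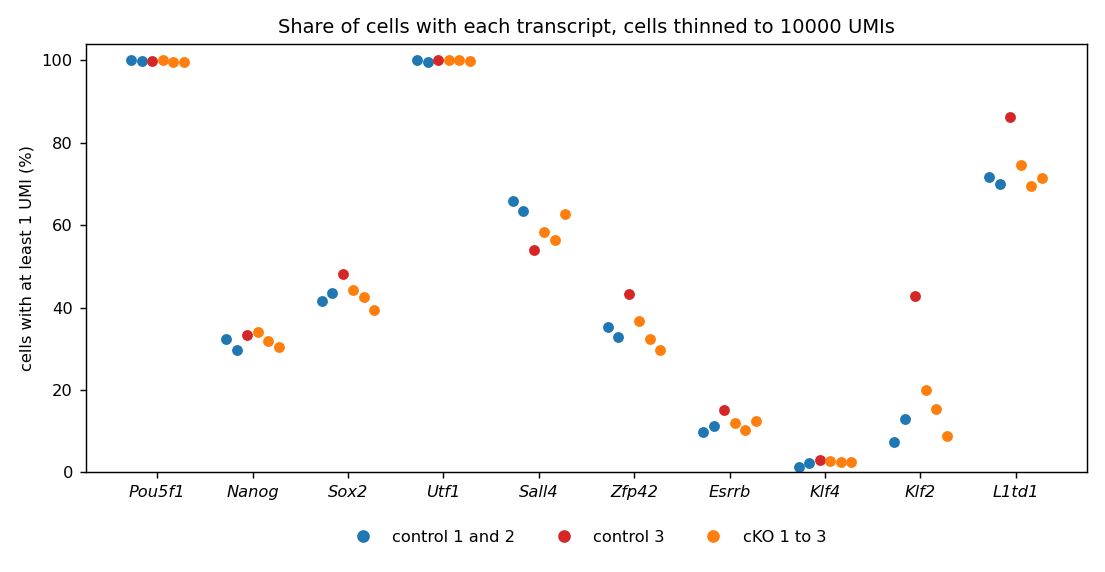
Share of cells with at least 1 UMI of each member (%) per library, after each cell was thinned to 10000 UMIs. Pou5f1 and Utf1 are found in nearly every cell of all 6 libraries, and control 3 (red) stands apart for Klf2 and L1td1.

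Members differed widely in how many cells showed them. Cells were thinned to 10000 UMIs, which left out 43, 13 and 218 cells of controls 1 to 3 and 25, 91 and 66 cells of cKO 1 to 3. Pou5f1 was then found in at least 99.6% and Utf1 in at least 99.5% of the cells of each library. The median cell had 6 or 7 UMIs of Pou5f1 and 9 to 11 of Utf1. Dazl, a germ cell marker that is not a member, was found in at least 99.5% of them in each library. Thinning left out 74 of the 343 cells of cluster 3 and 166 of the 2210 of cluster 0. Without thinning, Pou5f1 was found in 95.3% and Utf1 in 97.7% of the cells of cluster 3. Among the thinned cells, the median share over 60 markers of other cell types was 0.305% in controls and 0.260% in cKO libraries. The highest of these was Pecam1, at 32.2% and 29.4%, an endothelial marker that early germ cells also express.

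L1td1 was found in 69.6% to 86.2% of cells, Sall4 in 53.9% to 65.9% and Sox2 in 39.3% to 48.1%. Nanog was found in 32.4%, 29.7% and 33.3% of cells in the controls and in 34.1%, 32.0% and 30.4% in the cKO libraries, which overlapped. Zfp42 ran from 29.6% to 43.2%, Esrrb from 9.89% to 15.2% and Klf4 from 1.36% to 3.08%. Beside Klf4, the Sertoli cell marker Aard was found in 10.6% of the cells of control 3 and in 0.542% to 1.76% of those of the other 5 libraries. Without thinning, Nanog was found in 38.85% to 48.96% and Sox2 in 50.8% to 62.1% of cells. For 0 of the 10 members did the shares of the groups separate, beside 8.33% of all genes tested, which were thinned in another random draw. In that draw the shares of 1 member, Pou5f1, separated. Without thinning 0 members and 2.89% of genes separated, and at 5000 UMIs 1 member, Zfp42, and 8.79% of genes.

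Klf2 was found in 42.9% of the cells of control 3, against 7.32% to 20% in the other libraries (48.6% against 9.60% to 29.8% without thinning). Its UMIs in control 3 were spread over many cells. The 10% of cells with the most Klf2 UMIs held 38.3% of them, no cell had more than 7, and 18.5% of cells had 2 or more. In the other 5 libraries 0.512% to 5.83% of cells had 2 or more. L1td1 followed the same pattern less steeply, with 86.2% of cells in control 3 against 69.6% to 74.7%.

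Cells with all 3 core factors, Pou5f1, Sox2 and Nanog, made up 14.0%, 13.7% and 17.2% of the thinned cells of controls 1 to 3. For cKO 1 to 3 this share was 15.4%, 14.5% and 11.5%. The product of the 3 single shares was 13.5%, 12.9% and 16.0% for the controls, and for the cKO libraries it was 15.1%, 13.5% and 11.9%, so joint detection was slightly above it in 5 libraries and slightly below it in cKO 3. The median cell showed 5 of the 10 members in every library.

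The genes most like each member were sought among the 4938 genes whose mean reached 20 CPM, by Pearson's r of log2(CPM + 1) over 26 sums of a library and a cluster. These sums share libraries and depth, so r is a description. Zfp42 and L1td1 were each other's closest gene, with r = 0.87, and 0.73 over the 21 sums without control 3. For Klf2, r with Gclm was 0.92, and 0.83 without control 3. Sox2 was closest to Gtf2f2 (0.84) and Rnf149 (0.83), values that fell to 0.37 and 0.36 without control 3. Pou5f1 was closest to Psma5 (0.86) and Fkbp6 (0.82), and Nanog to Gtf2e1 (0.81) and Rangrf (0.80). Sall4 was closest to Tdrp (0.78) and Rsl24d1 (0.77), and Utf1 to Cdc20 (0.755) and Eif4e (0.746). The second gene was Arl5a (0.81) for Zfp42 and Rtn4 (0.86) for L1td1, values that fell to 0.56 and 0.54 without control 3.

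A wider list of 36 other pluripotency genes gave no call either. Of the 34 tested, edgeR and DESeq2 called 0. With edgeR 4 had an unadjusted p under 0.05, 12 values were above and 22 below 0, and the median was -0.08. Over all genes tested, 3.51% had an unadjusted edgeR p under 0.05 and 50.1% of values were above 0. Without control 3, 18 of the 34 were above and 16 below 0, with a median of 0.01. Dppa5a and Dppa3, small germ cell and embryonic proteins, had the highest levels, with 4439 ± 704 and 2625 ± 169 CPM in controls and 4003 ± 341 and 2601 ± 301 CPM in cKO libraries (SD, n = 3 each). Trim28, a corepressor that silences retroelements, was at 206, 220 and 453 CPM in controls 1 to 3 and at 234, 200 and 266 CPM in cKO 1 to 3, control 3 again being highest. The largest differences were those of Stat3, the LIF pathway factor, at 0.61 ± 0.28, of Nr0b1, a nuclear receptor, at -0.49 ± 0.40, and of Tdgf1, a Nodal co-receptor, at -0.47 ± 0.16 (log2, SE; edgeR adjusted p 0.994 each). Without control 3 they were 0.39, 0.04 and -0.43, so that the difference of Nr0b1 was lost. Stat3 did not overlap between the groups, at 2.47, 2.71 and 1.62 CPM in controls 1 to 3 and 3.73, 3.73 and 2.79 CPM in the cKO libraries. Neither did Tdgf1, at 8.42, 9.56 and 9.53 CPM against 6.46, 5.94 and 7.41 CPM. Of the other genes tested on this list, Tdh, Etv4 and Nr5a2 did not overlap either, with means of 155, 34.0 and 13.5 CPM in controls and 123, 26.3 and 11.02 CPM in cKO libraries; they were named after these values were seen. These are 5 of 34, beside the 8.93% of all genes tested given above.

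Of 17 genes listed for male fetal germ cell differentiation, 15 were tested. edgeR and DESeq2 called 0. With edgeR 1 had an unadjusted p under 0.05, 11 values were above and 4 below 0, and the median was 0.11, or 0.02 without control 3. Over all genes tested, 3.51% had an unadjusted edgeR p under 0.05 and 50.1% of values were above 0. Control 3 was the lowest library for Nanos2, Piwil4, Mael, Tdrd1, Tdrd5, Ddx4, Dazl, Mov10l1 and Tex101, and the highest for Asz1. It was the lowest for 24.3% and the highest for 24.2% of all genes tested.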

How the data were processed

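The authors deposited whole-number UMI counts for all barcodes of the 6 libraries and, in a second table, each barcode's library and its cluster number at resolution 0.2. Per the labels' protocols, cells were loaded on a 10x Chromium Controller with v2 chemistry, and Cell Ranger, Seurat 3.0 and mm10 are listed, without parameters, in the submitters' processing notes; the annotation release is not given in the sources used here. Members and gene lists were chosen with earlier results of these data known.

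Barcodes below 500 genes or with 10% or more of mitochondrial UMIs were left out (6 in all). Scrublet (scanpy 1.11.5) called 160 doublets (3.10%), kept in the main analysis. Counts were summed per library, and per library and cluster where every library had at least 20 cells, which left out cluster 4. The quasi-likelihood test was run on the sums in edgeR 4.0.16 (R 4.3.3; two-sided, robust, TMM, filterByExpr, no covariate), with Benjamini-Hochberg adjustment over all genes tested and a threshold of 0.05. Differences between clusters in the genotype effect used a genotype by cluster term with the library as a block. The procedure was tested on simulated data, drawn with the same spread setting for every gene and with no outlying library. They do not show how it handles a library such as control 3. Levels of single genes are counts per 1000000 (CPM) of the fitted library sizes with TMM factors; sums of marker lists are without these factors. Ratios between clusters and similarity between genes used log2(CPM + 1). Intervals are 95% intervals of the fit and, like all counts here, cover no error beyond these libraries. Named are all 10 members, the 2 genes most like each member with a mean of at least 20 CPM (1 of these is not reported here), and from the wider list the 3 with the highest mean and the 3 with the largest difference. Alternatives were RLE factors, no low-count filter or a filter at 20 CPM, DESeq2 1.42.0, a replicate block, leaving out each library, no filter on cells, doublets removed, equal cell numbers, equal cluster weights, and other depths or another random draw for shares. Positions are from GENCODE M21 (GRCm38).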

Additional observations from a re-analysis of the deposited data

How the results depend on the processing

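No alternative brought a member past the threshold by edgeR or DESeq2: the smallest adjusted p was 0.659 over 15 fits of all cells, 0.481 over 12 fits of each cluster and 0.461 over 10 fits of each cluster against cluster 0. The count of all genes called in all cells moved from 0 to 4 with DESeq2, to 6 without a low-count filter and to 0 to 4 on leaving out 1 library (4 without control 3). The deviations of same-numbered libraries had r of -0.132, 0.231 and 0.197, and control 1 correlated best with cKO 2, so the numbers were not taken as pairs; with the replicate block edgeR called 0 members and 0 genes.

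Several members changed sign when 1 library was left out; the causes were not tested. In all cells the ranges were -0.056 to 0.012 for Pou5f1, -0.042 to 0.0064 for Nanog, -0.11 to 0.0085 for Sall4, -0.33 to 0.10 for Esrrb, -0.16 to 0.33 for Klf4, -1.33 to 0.53 for Klf2 and -0.41 to 0.087 for L1td1. In cluster 0 they were -0.069 to 0.016 for Pou5f1, -0.15 to 0.0061 for Sall4, -0.27 to 0.14 for Zfp42, -0.47 to 0.17 for Esrrb, -0.13 to 0.77 for Klf4, -1.29 to 0.58 for Klf2 and -0.41 to 0.077 for L1td1. In cluster 1 they were -0.055 to 0.055 for Nanog, -0.088 to 0.022 for Sall4, -0.20 to 0.28 for Esrrb, -0.43 to 0.16 for Klf4, -1.54 to 0.41 for Klf2 and -0.35 to 0.13 for L1td1. In cluster 2 they were -0.055 to 0.11 for Nanog, -0.18 to 0.15 for Sox2, -0.19 to 0.12 for Sall4, -0.38 to 0.049 for Esrrb and -1.40 to 0.85 for Klf2. In cluster 3 they were -0.035 to 0.26 for Pou5f1, -0.11 to 0.34 for Nanog, -0.38 to 0.13 for Sox2, -0.087 to 0.023 for Utf1, -0.045 to 0.098 for Sall4, -0.95 to 0.015 for Klf2 and -0.32 to 0.12 for L1td1. Other settings turned only values near 0: without a low-count filter Sall4 came to 0.00088 in cluster 2 and Utf1 to 0.010 in cluster 3, and with RLE factors Sall4 came to -0.0059 in cluster 3.

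Control 3 was the highest library for 6 or 7 members under RLE factors, equal cell numbers, no TMM factors (chosen after seeing the data) and within clusters 0, 1 and 3, and for 4 within cluster 2. At 5000 UMIs per cell the shares of 1 member, Zfp42, separated: 19.9% to 25.1% in controls and 16.7% to 19.2% in cKO libraries. In another random draw over all genes, chosen after seeing the data, 1 member, Pou5f1, separated at 10000 UMIs and 0 at 5000 UMIs. Of all genes tested, 8.33% separated at 10000 UMIs and 8.79% at 5000 UMIs in that draw. Counts were low for Klf4, with 18 to 52 UMIs per library, and clusters 3 and 4 held 343 and 98 cells. Klf4 and Esrrb had no value with the filter at 20 CPM, and the values with equal cluster weights have no test.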

Other observations

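The order of the libraries by Klf2, from control 1 through cKO 3, control 2, cKO 2 and cKO 1 to control 3, does not follow genotype. Of 4937 other genes whose mean reached 20 CPM, 37 had their libraries in that order, a count looked for after the values of Klf2 were seen. The 5 with the widest range from the lowest to the highest library were Yrdc, Ptov1, Jund, Nsmce4a and Taf5. Yrdc, a tRNA-modifying enzyme, ran from 9.15 CPM in control 1 to 92.3 CPM in control 3, which is 10.1 times as much. Ptov1 ran from 56.6 to 337 CPM, Jund, an AP-1 subunit, from 29.6 to 169 CPM, Nsmce4a, a subunit of the SMC5/6 complex, from 53.1 to 301 CPM, and Taf5, a subunit of TFIID, from 20.3 to 88.9 CPM. Jund was the only one of 14 immediate early and heat shock genes, also chosen after the values were seen, with its highest level in control 3. Its place was fixed by the search for the order of Klf2. The other 13 were highest in another library. Among these, control 3 had rank 2 of the 6 libraries for Fos, Fosb, Junb, Egr1, Ier2, Dusp1 and Hspa1a. It had a rank of 3 to 6 for Jun, Atf3, Hspa1b, Zfp36, Btg2 and Klf6. Gclm, set beside Klf2 in the search for similar genes, ran from 26.4 CPM in control 1 through 31.0, 45.1, 46.8 and 65.1 to 104.3 CPM in control 3.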
